A study of Homo sapiens with 24 samples.

Results

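Autophagy and the lysosome were followed through 37 genes of the core pathway in HT29 cells, a widely used human cell line from a colon adenocarcinoma. The genes were chosen by symbol: every probe whose gene name on the array equalled one of the 37 symbols was read, 58 probes in all, of which 55 passed the filter on dim probes. All 37 genes were represented among the 20700 genes tested, 19 of them by 1 probe and 18 by more than 1. Where a gene had more than 1 probe, the one with the highest mean over the arrays stood for it.

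The study asked how metabolites of dairy propionibacteria act on colon cancer cells together with TRAIL, a death ligand of the TNF family that triggers apoptosis through its receptors. Cells received no treatment (NT), a mixture of 30 mM propionate and 15 mM acetate (C3/C2), a propionibacterial culture supernatant diluted to 1/2 (SN), TRAIL at 100 ng/ml with 2 µg/ml of the anti-Flag antibody that cross-links it, or TRAIL together with C3/C2 or with SN. RNA was taken after 6 h, and each of the 6 groups was measured on 4 one-colour arrays, 24 in all. HT29 is 1 cell line, so the results describe that line in culture.

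Autophagy encloses part of the cytoplasm in a double membrane, the autophagosome, which fuses with the lysosome so that its content is degraded. The ULK kinase complex starts the process, a class III PI3-kinase complex marks the site, ATG9A, ATG2 and WIPI proteins supply and shape the membrane, and conjugation enzymes attach proteins of the ATG8 family (LC3 and GABARAP) to it, where cargo receptors such as p62 bind them. TFEB, a transcription factor, is known for switching on genes of the lysosome and of autophagy when nutrients are short or lysosomes are stressed.

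Levels below are log2 intensities relative to the 75th percentile of the same array, so that 0 is the level of that percentile, and each probe is set only against itself. The unscaled 75th percentile was highest in NT (745 to 1010 intensity units) and lowest in TRAIL+C3/C2 (453 to 518), and between 49.8% and 57.8% of probes were well above background on an array. A gene is said to have risen or fallen where the adjusted p (limma, Benjamini-Hochberg over all 20700 genes) was under 0.05, and is called higher or lower where the fold change was also 2 or more. All 5 comparisons with NT share the same 4 NT arrays. Lack of overlap with NT was common. In each group with C3/C2 or SN, 32.6% to 36.5% of all genes lay wholly above NT and 25.6% to 31.1% wholly below. After TRAIL these shares were 20.7% and 12.4%. The share of all genes that stood apart from NT and TRAIL in every such group at once was not counted. Slide and treatment cannot be told apart in most of them, since NT and C3/C2 lay together on slides 1 and 2, SN and TRAIL on slide 3 and both co-treatments on slide 4. All 10 colon epithelial markers were well above background on the 24 arrays, with a summed level of 767 to 850 times the 75th percentile in NT and 1010 to 1120 with TRAIL. So were 3 of 4 leukocyte and 3 of 3 endothelial markers, and their summed level moved with treatment (leukocyte markers 3.97 to 5.56 times the 75th percentile in NT and 6.84 to 8.25 in SN, endothelial markers 0.199 to 0.246 in NT and 0.327 to 0.434 in C3/C2). Of 4 fibroblast markers, COL1A2 and DCN were well above background on no array, while COL1A1 took the summed level from between 0.0252 and 0.0357 in NT to between 0.634 and 0.8 in SN. The part of these markers in the results below was not tested, and in RNA from whole cultures fewer cells of a type and less RNA per cell cannot be told apart.

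After C3/C2, 7 of the 37 genes were called higher, or 18.9% of them against 13.4% of all genes tested, and 2 were called lower (5.41% against 6.17%). After SN the counts were also 7 higher (background 14.2%) and 2 lower (background 9.74%). TRAIL alone had 0 of the 37 called in either direction by limma, where 0.749% of all genes were called higher and 2.18% lower, and at an unadjusted p under 0.05 with no fold limit 12 of the 37 lay above NT and 3 below, against 25.4% and 17.1% of all genes. TRAIL+C3/C2 had 7 called higher (background 16.3%) and 2 lower (background 7.93%), and TRAIL+SN had 8 higher (background 16.1%) and 3 lower (background 10.1%). These shares lay near the background. Apart from TRAIL, each count lower included ULK2, which was mostly too dim to measure outside NT and TRAIL. The nearness to the background depended on the processing. With normexp background correction the counts higher in the groups with C3/C2 or SN stayed the same. The shares of all genes called higher were then smaller, at 7.4% after C3/C2, 8.82% after SN, 11.8% in TRAIL+C3/C2 and 11.4% in TRAIL+SN.

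The difference from the background was larger without the fold limit. By adjusted p alone, 23 of the 37 (62.2%) rose after C3/C2 against 35.2% of all genes, and 6 (16.2%) fell against 27.7%. SN raised 24 (background 35.1%) and lowered 8 (background 34.2%). TRAIL raised 10 (background 20.3%) and lowered 1 (background 13.1%). In TRAIL+C3/C2, 23 rose (background 39.9%) and 9 fell (background 29.5%), and in TRAIL+SN 22 rose (background 37.4%) and 11 fell (background 32.7%).

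The median log2 difference of the 37 genes from NT was 0.30 after C3/C2, 0.44 after SN, 0.07 after TRAIL, 0.38 after TRAIL+C3/C2 and 0.40 after TRAIL+SN, against medians of 0.08, -0.02, 0.03, 0.10 and 0.04 over all genes. These directions depend on how arrays are scaled. Scaling by the array median, which is also the authors' normalization, moved the median of all genes to -0.22, -0.15, 0.13, -0.25 and -0.16 in the same order, and scaling by spike-in controls moved it to -0.12, 0.06, -0.23, -0.61 and -0.48. Each of these scalings shifts every gene of an array alike, so the median of the 37 genes relative to the median of all genes is the same under each: 0.22, 0.45, 0.04, 0.28 and 0.37. Calls against NT moved with the shift. With array median scaling the counts were 4 higher and 3 lower after C3/C2 (9.67% and 11.3% of all genes), 6 and 2 after SN (12.3% and 12.1%), 2 and 0 after TRAIL (1% and 1.87%), 5 and 4 after TRAIL+C3/C2 (11.1% and 15.1%) and 7 and 5 after TRAIL+SN (12.9% and 13.9%). With spike-in scaling they were 6 and 3 after C3/C2 (10.8% and 9.28% of all genes), 7 and 1 after SN (15.6% and 8.48%), 0 and 0 after TRAIL (0.406% and 3.71%), 2 and 8 after TRAIL+C3/C2 (7.68% and 28.2%) and 5 and 7 after TRAIL+SN (9.12% and 23.4%).

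**Figure D1:**
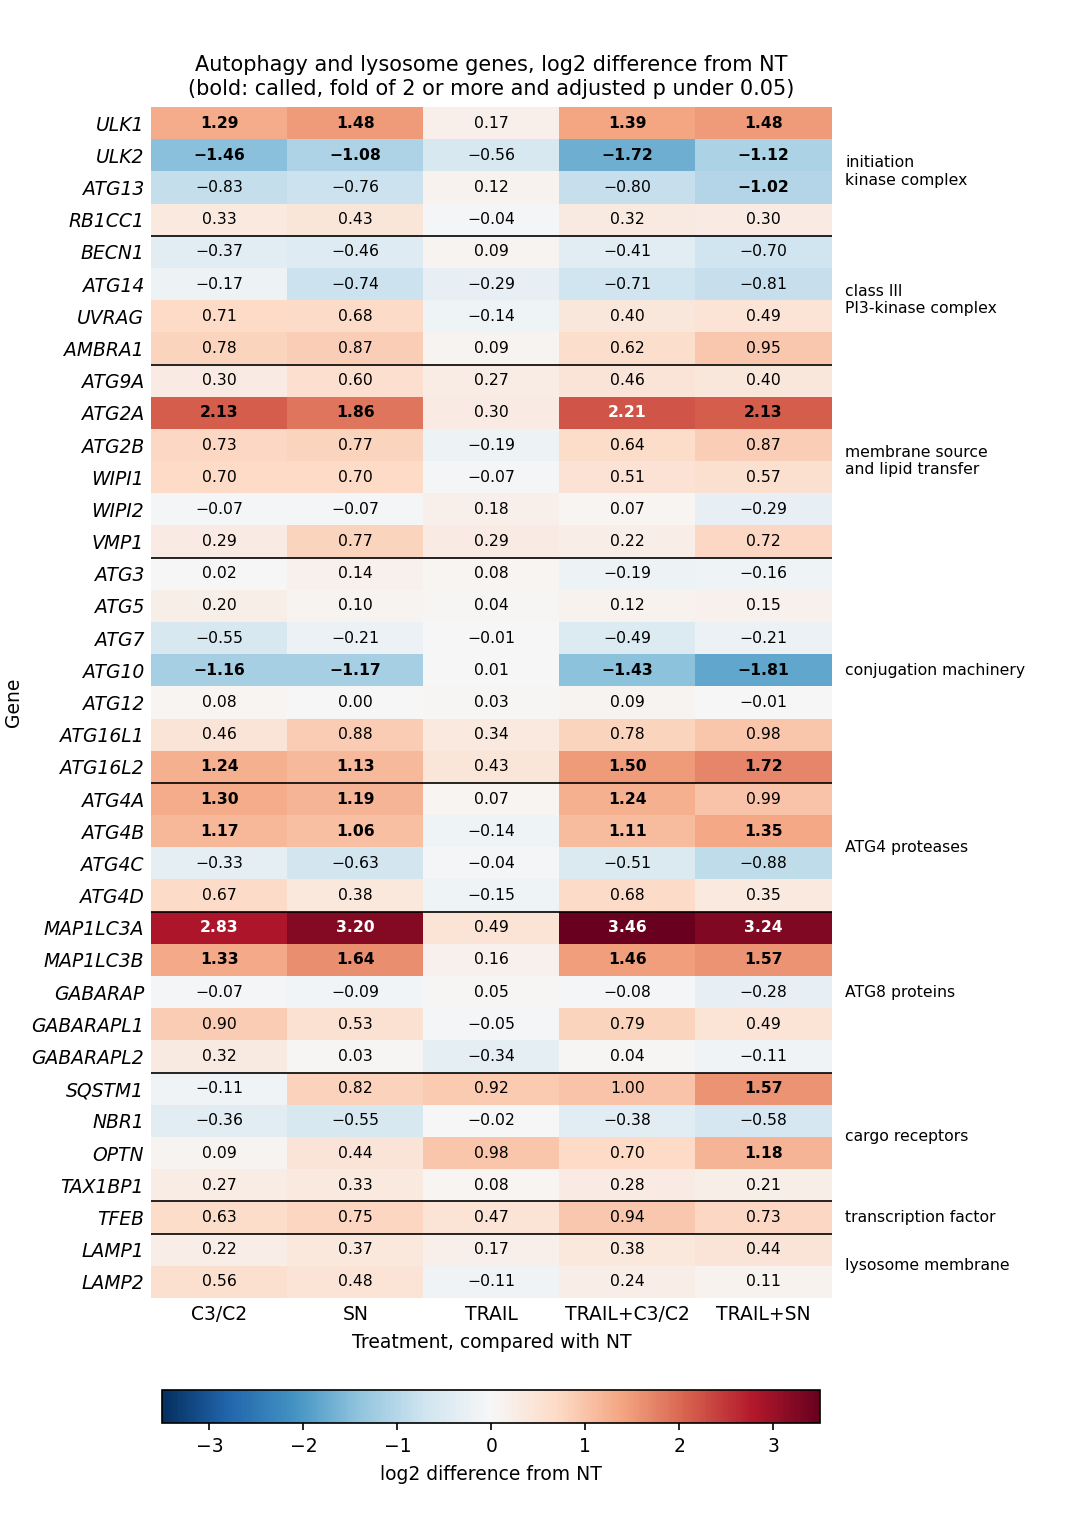
Log2 difference from NT of each of the 37 genes (rows, grouped by role) after each of the 5 treatments (columns), colour running from blue (lower than NT) to red (higher). Bold values are called, and the strongest red lies in MAP1LC3A, between 2.83 and 3.46 in the 4 columns with C3/C2 or SN, while the TRAIL column holds no bold value.

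In the ULK complex ULK1 was called higher, while the readings of ULK2 were mostly too dim to measure outside NT and TRAIL. ULK1, the kinase that starts autophagosome formation, stood at 1.20, 1.15, 1.38 and 1.35 on the NT arrays, at 2.60, 2.63, 2.47 and 2.56 after C3/C2 and at 2.92, 2.79, 2.65 and 2.62 after SN. With TRAIL alone it stood at 1.33, 1.32, 1.54 and 1.57, with TRAIL+C3/C2 at 2.73, 2.77, 2.53 and 2.61 and with TRAIL+SN at 2.89, 2.87, 2.60 and 2.65. Every array with C3/C2 or SN was above every array without them, while the NT and TRAIL arrays overlapped. The log2 difference from NT was 1.29 ± 0.09 (SE, adjusted p = 3.51e-11) after C3/C2 and 1.48 ± 0.09 (SE, adjusted p = 3.36e-12) after SN, and 0.17 ± 0.09 after TRAIL. It was 1.39 ± 0.09 in TRAIL+C3/C2 and 1.48 ± 0.09 in TRAIL+SN. With array median scaling the C3/C2 difference was 0.99, and with spike-in scaling the co-treatment differences were 0.68 and 0.97, all still positive but under the fold limit.

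ULK2, its close relative, was well above background on all 4 NT arrays, 3 TRAIL arrays, 2 SN arrays and 1 C3/C2 array, 10 of the 24 in all, so it passed the filter only through the group where it was highest and its counted falls are no support for a change. Its level was -4.54, -4.32, -4.69 and -4.79 in NT, -6.91, -5.66, -5.82 and -5.77 after C3/C2 and -5.32, -5.36, -5.85 and -6.12 after SN. TRAIL arrays read -4.51, -4.82, -4.90 and -6.34. No array of either co-treatment had it well above background, with readings of -5.42, -6.53, -5.87 and -7.39 in TRAIL+C3/C2 and -5.47, -5.21, -6.90 and -5.22 in TRAIL+SN. NT arrays were the highest, with TRAIL arrays partly among them. The fitted log2 difference was -1.46 ± 0.44 (SE, adjusted p = 0.00647) after C3/C2, where 1 of 4 arrays measured it, and -1.08 ± 0.44 (SE, adjusted p = 0.0343) after SN, where 2 did. Against the lowest signal that counts as well above background, the bound on the difference was 1.44-fold in TRAIL+C3/C2 and 1.41-fold in TRAIL+SN. This bound holds for the processed signal only. The adjusted p of 0.00159 and 0.0285 in the fit rest on readings too dim to measure. With normexp background correction no ULK2 call was left, and the co-treatment differences turned to 0.14 and 0.20. The SN call was also lost without NT replicate 1 (-1.07, adjusted p = 0.0603), NT replicate 2 (-0.99), SN replicate 3 (-1.02) or SN replicate 4 (-0.93), and that of TRAIL+SN without NT replicate 1 (-1.10), NT replicate 2 (-1.03) or TRAIL+SN replicate 3 (-0.72).

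ATG13, the subunit that couples the kinase to nutrient signals, fell after every treatment that contained C3/C2 or SN. Its level was 0.74, 0.71, 0.82 and 0.93 in NT, -0.02, -0.03, 0.02 and -0.11 after C3/C2 and 0.04, 0.03, 0.02 and 0.06 after SN. It was 1.07, 0.75, 0.93 and 0.94 with TRAIL, -0.06, 0.01, 0.03 and 0.02 with TRAIL+C3/C2 and -0.36, -0.28, -0.27 and 0.04 with TRAIL+SN. The groups with C3/C2 or SN did not overlap NT or TRAIL. Log2 differences were -0.83 ± 0.07, -0.76 ± 0.07, -0.80 ± 0.07 and -1.02 ± 0.07 in the 4 groups, and only the last was past the fold limit. That call was lost without NT replicate 4 (-0.98) and without TRAIL+SN replicate 1 (-0.97) or 2 (just inside the fold limit), and with normexp background correction (-0.88). With array median scaling ATG13 was also called lower after C3/C2 (-1.13) and in TRAIL+C3/C2 (-1.14), and both calls were also made with spike-in scaling (-1.03 after C3/C2). A second ATG13 probe gave -0.74, -0.88, -0.74 and -1.19. RB1CC1, the scaffold of the complex, differed by 0.30 to 0.43 in the same 4 groups, and its difference turned to -0.02 in TRAIL+C3/C2 with array median scaling and to -0.38 in TRAIL+C3/C2 and -0.21 in TRAIL+SN with spike-in scaling.

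In the class III PI3-kinase complex no gene was called, although 3 were called under alternatives: AMBRA1 after SN and in both co-treatments with the mean of its probes (up to 1.36), ATG14 in both co-treatments with spike-in scaling (-1.42 and -1.32) and array median scaling, and BECN1 in both with spike-in scaling (-1.11 and -1.22). BECN1, the regulatory subunit that BCL2 proteins hold, fell by 0.37 after C3/C2, by 0.46 after SN, by 0.41 in TRAIL+C3/C2 and by 0.70 in TRAIL+SN on the log2 scale, with an SE of 0.05. Its NT arrays lay between 2.63 and 2.70, above every array of those 4 groups (1.88 to 2.38). AMBRA1, which activates the complex, rose by 0.78, 0.87, 0.62 and 0.95 in the same order (SE 0.06), although with spike-in scaling its TRAIL+C3/C2 difference was -0.08. A second AMBRA1 probe rose by 1.17, 1.14, 1.54 and 1.76. UVRAG, which directs the complex toward endosome and autophagosome maturation, rose by 0.71, 0.68, 0.40 and 0.49 (SE 0.07), with spike-in values of -0.30 and -0.02 in the co-treatments. ATG14, which brings the complex to the site of autophagosome formation, fell by 0.74 after SN (SE 0.18), by 0.71 in TRAIL+C3/C2 and by 0.81 in TRAIL+SN, and differed by -0.17 after C3/C2 (adjusted p = 0.425). It was well above background on 20 of the 24 arrays, and with normexp the co-treatment differences turned to 0.25 and 0.18.

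Among the genes for membrane supply, ATG2A had the second largest rise of the 37 genes. ATG2A encodes a protein that transfers lipids to the growing autophagosome membrane. Its level was 3.43, 3.54, 3.47 and 3.51 in NT, 5.56, 5.63, 5.66 and 5.62 after C3/C2 and 5.48, 5.46, 5.22 and 5.24 after SN. With TRAIL it was 3.66, 3.77, 3.83 and 3.92, with TRAIL+C3/C2 5.87, 5.79, 5.55 and 5.57 and with TRAIL+SN 5.73, 5.88, 5.40 and 5.48. All 16 arrays with C3/C2 or SN were above all 8 without, and the TRAIL arrays were slightly above NT. The difference was 2.13 ± 0.10 (SE, adjusted p = 5.31e-14) after C3/C2, 1.86 ± 0.10 (SE, adjusted p = 3.53e-13) after SN, 2.21 ± 0.10 in TRAIL+C3/C2 and 2.13 ± 0.10 in TRAIL+SN. TRAIL alone gave 0.30 ± 0.10. A second probe gave 2.13, 2.14, 2.43 and 2.24 in the same 4 groups and 0.53 after TRAIL.

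The other genes of this step moved less. ATG2B, the paralogue of ATG2A, rose by 0.64 to 0.87 in the 4 groups with C3/C2 or SN, and WIPI1, which binds the lipid made by the PI3-kinase, by 0.51 to 0.70, with spike-in values of -0.07 for ATG2B and -0.19 for WIPI1 in TRAIL+C3/C2. ATG9A, a scramblase carried on the vesicles that seed the membrane, rose by 0.27 to 0.60 in all 5 groups by the probe that stood for it. A second ATG9A probe, well above background on all 24 arrays, did not rise in all of them. Its mean was -0.04 in NT, 0.21 after C3/C2 and 0.29 after SN, but -0.16 after TRAIL, 0.01 in TRAIL+C3/C2 and -0.25 in TRAIL+SN. VMP1, a scramblase of the endoplasmic reticulum, rose by 0.77 after SN and 0.72 in TRAIL+SN but by 0.29 after C3/C2 and 0.22 in TRAIL+C3/C2. With array median scaling the C3/C2 difference came to 0.00 for ATG9A and -0.01 for VMP1 and that of VMP1 in TRAIL+C3/C2 to -0.13, and with spike-in scaling ATG9A read -0.24 in TRAIL+C3/C2 and -0.11 in TRAIL+SN and VMP1 -0.49 in TRAIL+C3/C2.

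In the conjugation machinery ATG10 was called lower, ATG16L2 was called higher and the other genes stayed within the fold limit. ATG10, the E2-like enzyme that joins ATG12 to ATG5, stood at -2.26, -2.05, -2.64 and -2.47 in NT, at -3.21, -3.59, -3.56 and -3.72 after C3/C2 and at -3.34, -3.36, -3.75 and -3.67 after SN. It read -2.11, -2.19, -2.50 and -2.59 with TRAIL, -3.81, -3.62, -3.88 and -3.85 with TRAIL+C3/C2 and -3.87, -3.99, -4.55 and -4.24 with TRAIL+SN. Groups with C3/C2 or SN did not overlap those without, and NT and TRAIL overlapped. The difference was -1.16 ± 0.16 (SE, adjusted p = 1.33e-06) after C3/C2, -1.17 ± 0.16 (SE, adjusted p = 9.7e-07) after SN, -1.43 ± 0.16 in TRAIL+C3/C2 and -1.81 ± 0.16 in TRAIL+SN. With normexp these were -0.70, -0.66, -0.49 and -0.64, below the fold limit. A second ATG10 probe was well above background on all 4 NT arrays, 2 TRAIL arrays and no other.

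ATG16L2, a paralogue of the ATG16L1 scaffold, was called higher in the 4 groups with C3/C2 or SN. It read 0.73, 0.92, 0.63 and 0.68 in NT, 2.00, 2.35, 1.67 and 1.90 after C3/C2 and 2.11, 2.09, 1.49 and 1.81 after SN. The readings were 1.27, 1.30, 0.94 and 1.19 with TRAIL, 2.56, 2.61, 1.96 and 1.85 with TRAIL+C3/C2 and 2.76, 2.91, 2.05 and 2.14 with TRAIL+SN. Replicates 1 and 2 were above replicates 3 and 4 in all 6 groups, and no array with C3/C2 or SN fell into the range of NT or TRAIL. The difference was 1.24 ± 0.20 (SE, adjusted p = 1.92e-05) after C3/C2, 1.13 ± 0.20 (SE, adjusted p = 4.63e-05) after SN and 1.72 ± 0.20 in TRAIL+SN, and the rise in TRAIL+C3/C2 was 2.84-fold. The C3/C2 call was lost with array median scaling (0.94), and that of TRAIL+C3/C2 with spike-in scaling (0.80).

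ATG16L1 itself rose in all 5 groups, by 0.46 after C3/C2, 0.88 after SN, 0.34 after TRAIL, 0.78 in TRAIL+C3/C2 and 0.98 in TRAIL+SN (SE 0.06), below the fold limit unless NT replicate 1 or 2 or TRAIL+SN replicate 1 was left out (1.01 each in TRAIL+SN). ATG7, the E1-like enzyme of both conjugation systems, fell by 0.55 after C3/C2, 0.21 after SN, 0.49 in TRAIL+C3/C2 and 0.21 in TRAIL+SN (SE 0.06). A second ATG7 probe gave -0.51 after C3/C2 and 0.19 after SN (adjusted p = 0.0601). ATG3, the E2-like enzyme of the LC3 system, rose by 0.14 after SN and fell by 0.19 in TRAIL+C3/C2 and by 0.16 in TRAIL+SN. It differed by 0.02 after C3/C2 and 0.08 after TRAIL. ATG12, the ubiquitin-like protein that ATG10 transfers, differed by -0.01 to 0.09 with adjusted p of 0.494 or more in all 5 comparisons.

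The ATG4 proteases, which trim ATG8 proteins before conjugation and release them afterwards, were divided. ATG4A was -0.35, -0.45, -0.29 and -0.39 in NT, 0.94, 0.92, 0.92 and 0.96 after C3/C2 and 0.83, 0.84, 0.79 and 0.81 after SN. It was -0.27, -0.32, -0.29 and -0.33 with TRAIL, 0.93, 0.84, 0.88 and 0.82 with TRAIL+C3/C2 and 0.62, 0.69, 0.57 and 0.59 with TRAIL+SN. The replicates were tight, and the arrays with C3/C2 or SN stood clear of the others. The difference was 1.30 ± 0.04 (SE, adjusted p = 4.34e-16) after C3/C2, 1.19 ± 0.04 (SE, adjusted p = 1.29e-15) after SN, 1.24 ± 0.04 in TRAIL+C3/C2 and 0.99 ± 0.04 in TRAIL+SN, the last just under the fold limit, which it passed without NT replicate 3 (1.01) and barely without TRAIL+SN replicate 3. The TRAIL+C3/C2 call was lost with array median scaling (0.89) and spike-in scaling (0.53).

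ATG4B read 1.78, 1.93, 2.01 and 1.88 in NT, 2.89, 3.15, 3.08 and 3.17 after C3/C2 and 2.95, 2.97, 2.93 and 2.97 after SN. The TRAIL arrays gave 1.78, 1.72, 1.77 and 1.79, those of TRAIL+C3/C2 3.06, 2.96, 3.00 and 3.04 and those of TRAIL+SN 3.28, 3.24, 3.20 and 3.28. Again the groups with C3/C2 or SN lay apart from NT and TRAIL. The difference was 1.17 ± 0.06 (SE, adjusted p = 1.89e-13) after C3/C2, 1.06 ± 0.06 (SE, adjusted p = 7.9e-13) after SN, 1.11 ± 0.06 in TRAIL+C3/C2 and 1.35 ± 0.06 in TRAIL+SN. A second ATG4B probe rose by 0.33, 0.83, 0.73 and 0.62, and with the mean of the probes all 4 calls were lost (0.75 to 0.98). Array median scaling also ended 3 of them (0.77 to 0.93), spike-in scaling those of C3/C2 (0.98), TRAIL+C3/C2 (0.41) and TRAIL+SN (0.83), and quantile normalization that of SN (0.98). ATG4D rose by 0.67, 0.38, 0.68 and 0.35 in the same 4 groups, with spike-in values of -0.03 and -0.16 in the co-treatments. ATG4C differed by -0.33 after C3/C2 (adjusted p = 0.0917) and fell by 0.63 after SN, by 0.51 in TRAIL+C3/C2 and by 0.88 in TRAIL+SN, and with normexp the TRAIL+C3/C2 value was 0.05. A second ATG4C probe gave -0.49, -0.83, -0.99 and -1.07 in the same order and -0.40 after TRAIL, and the third probe was well above background on the NT arrays alone, so its readings elsewhere are no measurement.

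The ATG8 family carried the largest rise of the set in MAP1LC3A, which encodes LC3A. On the NT arrays its level was -3.37, -3.66, -3.56 and -3.36, after C3/C2 -0.76, -0.69, -0.63 and -0.54 and after SN -0.25, -0.42, -0.28 and -0.23. With TRAIL it was -2.87, -3.22, -2.91 and -3.00, with TRAIL+C3/C2 0.04, -0.05, -0.03 and -0.08 and with TRAIL+SN -0.15, -0.21, -0.34 and -0.28. The NT and TRAIL arrays reached at most -2.87, the 16 others started at -0.76, and the 4 TRAIL arrays stood above the 4 NT arrays. The log2 difference was 2.83 ± 0.08 (SE, adjusted p = 3.26e-17) after C3/C2, or 7.13-fold, and 3.20 ± 0.08 (SE, adjusted p = 4.49e-18) after SN, or 9.16-fold. It reached 3.46 ± 0.08 in TRAIL+C3/C2 (11.0-fold) and 3.24 ± 0.08 in TRAIL+SN (9.48-fold), and TRAIL alone gave 0.49 ± 0.08. MAP1LC3A kept its call under every scaling, background and filter tried and without any single array.

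MAP1LC3B, which encodes LC3B, the member most used to mark autophagosomes, was at 1.85, 1.75, 2.10 and 2.10 in NT, at 3.09, 2.99, 3.54 and 3.51 after C3/C2 and at 3.61, 3.49, 3.68 and 3.58 after SN. TRAIL arrays read 1.92, 2.02, 2.26 and 2.24, TRAIL+C3/C2 arrays 3.31, 3.17, 3.58 and 3.60 and TRAIL+SN arrays 3.45, 3.47, 3.56 and 3.60. All arrays with C3/C2 or SN were above all others, and replicates 1 and 2 stood below replicates 3 and 4 in every group but SN. The difference was 1.33 ± 0.12 (SE, adjusted p = 5.83e-09) after C3/C2, 1.64 ± 0.12 (SE, adjusted p = 1.76e-10) after SN, 1.46 ± 0.12 in TRAIL+C3/C2 and 1.57 ± 0.12 in TRAIL+SN. With spike-in scaling the TRAIL+C3/C2 value was 0.76. A second probe rose by 1.63, 2.19, 1.73 and 2.09.

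The GABARAP branch of the family moved less. GABARAPL1 rose by 0.90 after C3/C2, 0.53 after SN, 0.79 in TRAIL+C3/C2 and 0.49 in TRAIL+SN (SE 0.09), and the last was -0.02 with spike-in scaling. GABARAPL2 rose by 0.32 after C3/C2, fell by 0.34 after TRAIL and differed by -0.11 to 0.04 in the other groups. GABARAP fell by 0.28 in TRAIL+SN and differed by -0.09 to 0.05 elsewhere, with adjusted p of 0.259 or more.

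**Figure D2:**
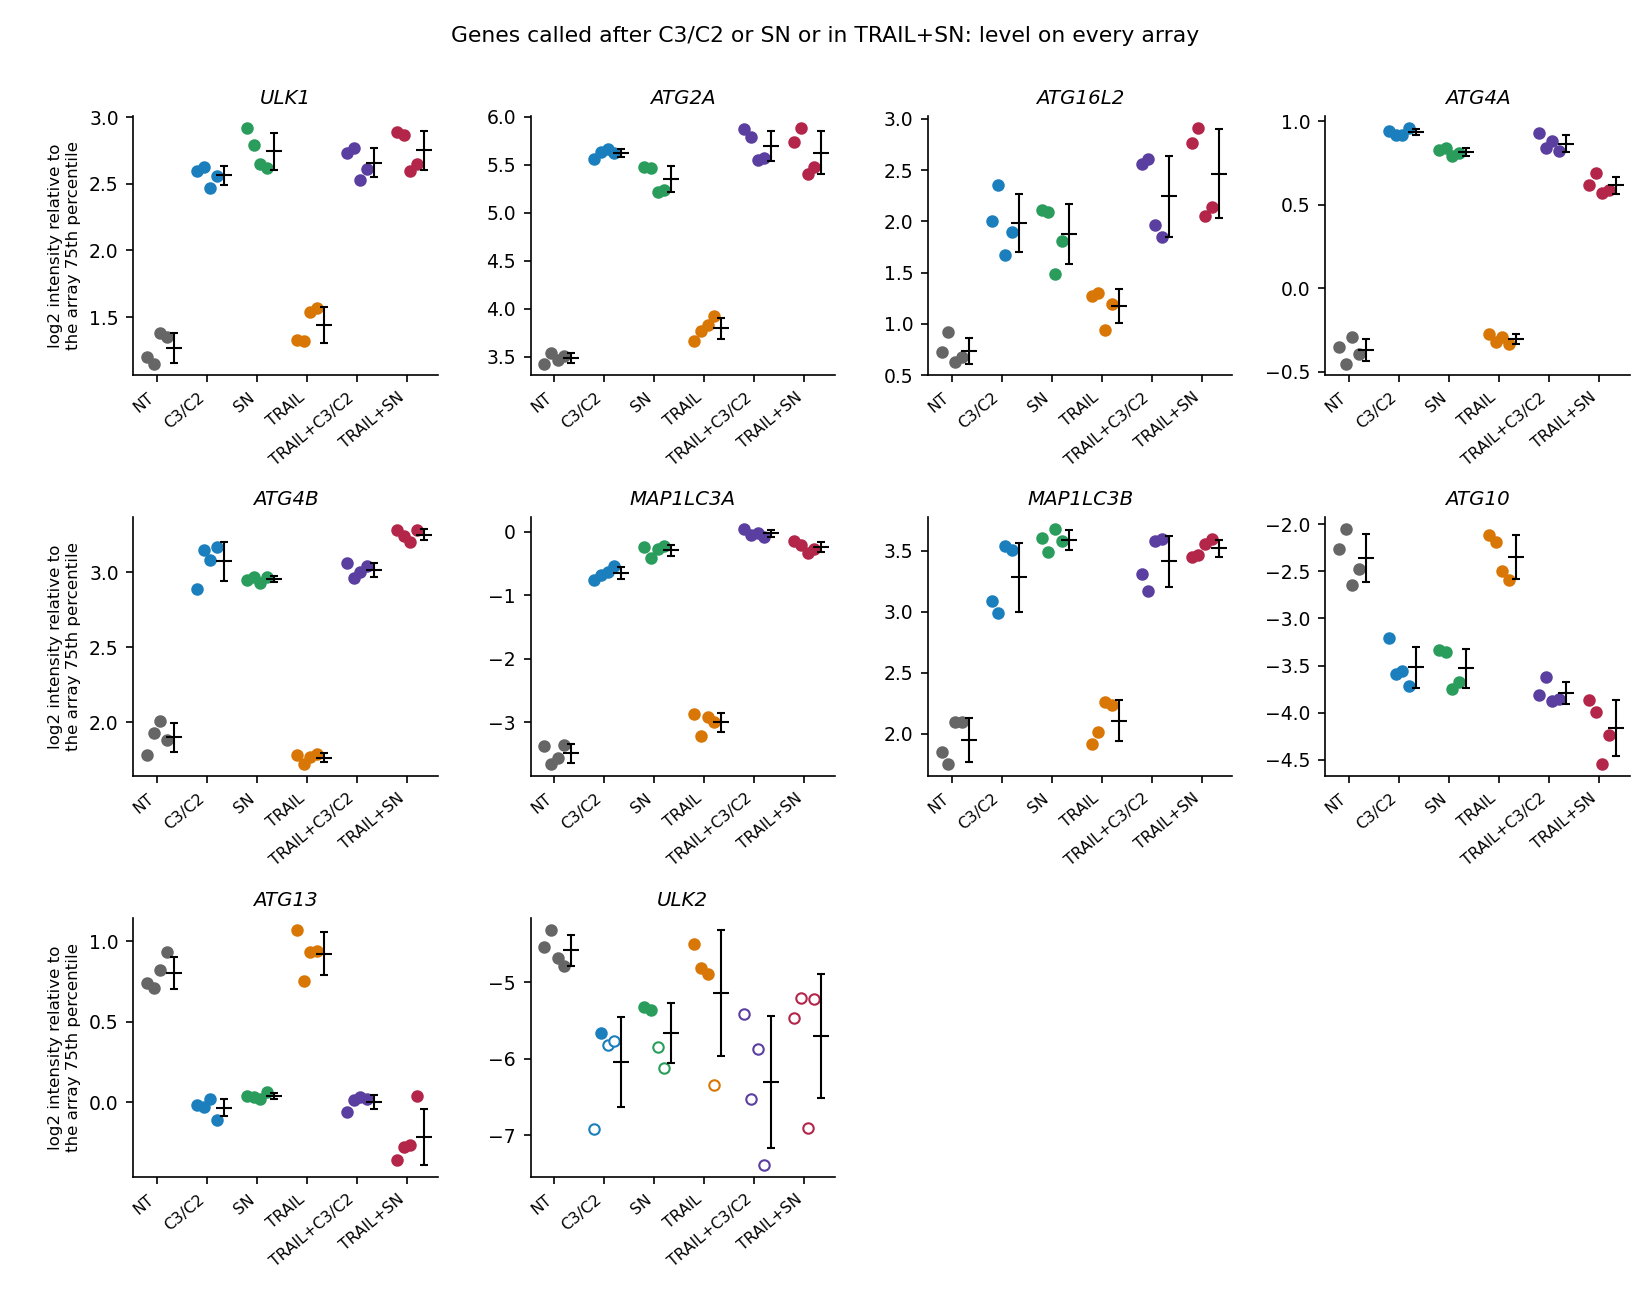
Log2 intensity relative to the array's 75th percentile (vertical axis) on each of the 24 arrays for 10 called genes, by treatment (horizontal axis). Points are arrays, open points are not well above background, and the black mark with its bar is the mean ± SD of 4 arrays. In 7 genes the 4 groups with C3/C2 or SN sit above NT and TRAIL, in ATG10 and ATG13 below, and ULK2 is dim and scattered. Of all genes, 32.6% to 36.5% lay wholly above NT in each of these 4 groups and 25.6% to 31.1% wholly below.

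Among the cargo receptors SQSTM1 and OPTN rose after TRAIL alone, and both were called in TRAIL+SN. SQSTM1, which encodes p62, stood at 5.44, 5.27, 5.43 and 5.53 in NT, at 5.25, 5.11, 5.43 and 5.43 after C3/C2 and at 6.17, 6.16, 6.33 and 6.27 after SN. It was 6.19, 6.35, 6.39 and 6.41 after TRAIL, 6.31, 6.31, 6.53 and 6.51 in TRAIL+C3/C2 and 6.98, 7.06, 6.87 and 7.04 in TRAIL+SN. C3/C2 arrays overlapped NT, TRAIL, SN and TRAIL+C3/C2 lay together above them, and the TRAIL+SN arrays stood above all others. The difference was -0.11 ± 0.08 after C3/C2, 0.82 ± 0.08 after SN, 0.92 ± 0.08 after TRAIL, 1.00 ± 0.08 in TRAIL+C3/C2 and 1.57 ± 0.08 in TRAIL+SN. The last was called, and the TRAIL+C3/C2 value fell just under the fold limit, which it passed without NT replicate 1 (1.01) or 4 (1.03) or TRAIL+C3/C2 replicate 1 or 2 (1.03 each), and barely without NT replicate 3. SN exceeded C3/C2 by 0.93 (adjusted p = 1.54e-08), the largest difference between them among the 37 genes.

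OPTN, which encodes optineurin, a receptor for ubiquitin-marked mitochondria and bacteria, was at -0.41, -0.47, -0.48 and -0.63 in NT, at -0.41, -0.33, -0.43 and -0.45 after C3/C2 and at -0.01, 0.00, -0.13 and -0.08 after SN. It read 0.49, 0.51, 0.55 and 0.37 after TRAIL, 0.30, 0.31, 0.15 and 0.07 in TRAIL+C3/C2 and 0.81, 0.81, 0.63 and 0.47 in TRAIL+SN. NT and C3/C2 overlapped, SN was above them and the 3 groups with TRAIL were above SN. The difference was 0.09 ± 0.07 after C3/C2, 0.44 ± 0.07 after SN, 0.98 ± 0.07 after TRAIL, 0.70 ± 0.07 in TRAIL+C3/C2 and 1.18 ± 0.07 in TRAIL+SN. With array median scaling the TRAIL+SN value was 0.98 and OPTN and SQSTM1 became the 2 genes called after TRAIL (1.08 and 1.02), while with spike-in scaling OPTN came to 0.00 in TRAIL+C3/C2 and 0.66 in TRAIL+SN. Without NT replicate 1 or TRAIL replicate 4 OPTN was called after TRAIL as well (1.01 each).

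NBR1, a receptor related to p62, fell by 0.36 after C3/C2, 0.55 after SN, 0.38 in TRAIL+C3/C2 and 0.58 in TRAIL+SN (SE 0.05). TAX1BP1 rose by 0.21 to 0.33 in the same groups, and its direction turned with spike-in scaling in both co-treatments and with array median scaling in the groups with C3/C2.

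**Figure D3:**
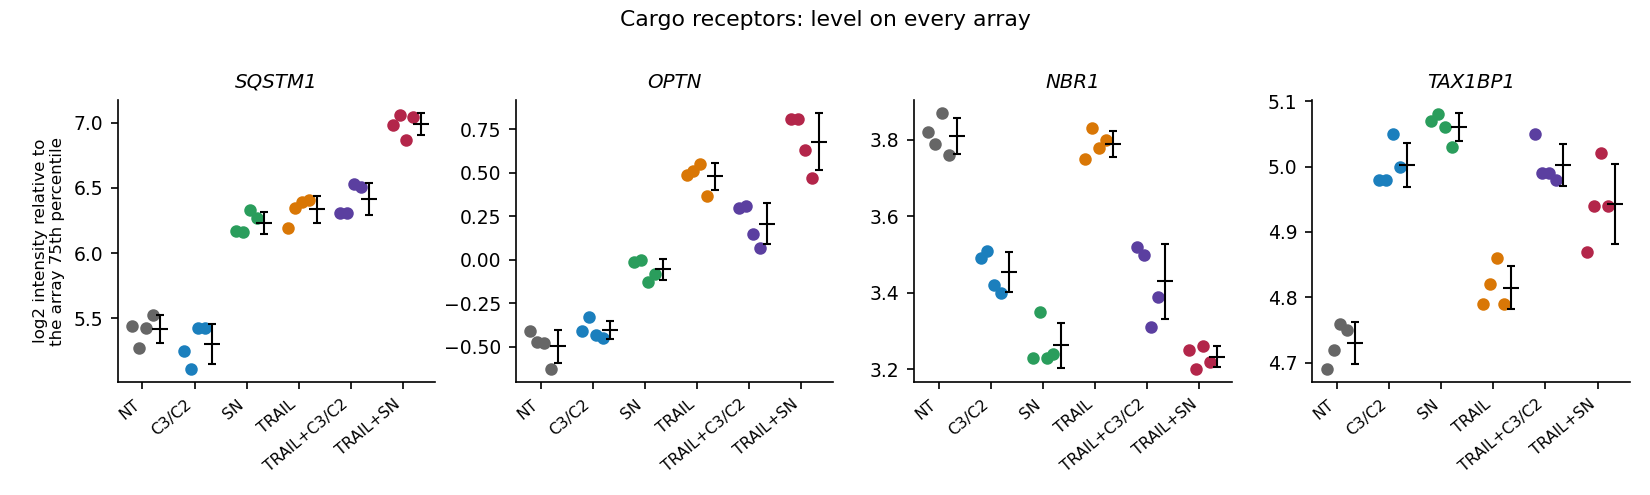
Log2 intensity relative to the array's 75th percentile (vertical axis) of 4 cargo receptor genes on each array, by treatment (horizontal axis), with mean ± SD of 4 arrays in black. SQSTM1 and OPTN are higher after TRAIL, with or without C3/C2 or SN, than in NT, whereas NBR1 is lower in the 4 groups with C3/C2 or SN.

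TFEB, WIPI2 and ATG5 were read by 2 probes each that passed the adjusted threshold in opposite directions in 1 comparison, so the probes are shown. The first probe of each is the one that represents the gene. The first 30 of the 60 bases of each are given 5′ to 3′ as the array files list them, in lower case throughout as no single base is at issue. On hg19 the TFEB probes lie on the minus strand at chr6:41651718-41651777 (first probe) and chr6:41658820-41658879 (second probe), the WIPI2 probes on the plus strand at chr7:5269265-5269324 (first) and chr7:5273021-5273080 (second), and the ATG5 probes on the minus strand at chr6:106633866-106633925 (first) and chr6:106632752-106632811 (second).
TFEB first probe: ccggaagagcagctgccctccgacccctca
TFEB second probe: atgcagcaacaggctgtcatgcattacatg
WIPI2 first probe: atgagatcttggactctgcctctcacgact
WIPI2 second probe: agggaccctgaaccaaacagaacgtgtgct
ATG5 first probe: cagtaaacccatctttccttaacgaaaatt
ATG5 second probe: ttgcacaagaggctggtctgaatatgattg

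For TFEB, the first probe read 2.16, 2.16, 1.69 and 1.86 in NT, 2.68, 2.55, 2.59 and 2.55 after C3/C2 and 2.81, 2.66, 2.78 and 2.62 after SN. With TRAIL it read 2.56, 2.67, 2.23 and 2.28, with TRAIL+C3/C2 3.02, 2.99, 2.81 and 2.80 and with TRAIL+SN 2.74, 2.67, 2.68 and 2.69. Every treated array was above every NT array, and the differences were 0.63 ± 0.10, 0.75 ± 0.10, 0.47 ± 0.10, 0.94 ± 0.10 and 0.73 ± 0.10 in that order. The second probe, in contrast, read 2.36, 2.48, 2.23 and 2.37 in NT and 1.83, 1.88, 1.81 and 1.86 after SN, a fall of 0.52 with no overlap. It differed by -0.17 to -0.05 in the other 4 groups, with adjusted p of 0.108 or more. With spike-in and array median scaling the first probe kept its direction, and without NT replicate 1 or 2 its TRAIL+C3/C2 value was at the fold limit (up to 1.01).

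For WIPI2, which recruits the conjugation machinery to the membrane, the first probe read 3.96, 3.91, 3.94 and 4.09 in NT, 3.90, 3.78, 3.96 and 3.97 after C3/C2 and 3.65, 3.62, 3.71 and 3.79 in TRAIL+SN. It fell by 0.29 in TRAIL+SN, rose by 0.18 after TRAIL, and differed by -0.07 to 0.07 in the other groups, with values of -0.08 after TRAIL under spike-in scaling and 0.09 in TRAIL+SN with the mean of the probes. The second probe read 0.16, 0.21, 0.33 and 0.38 in NT, 1.21, 1.17, 1.43 and 1.44 after C3/C2, 0.90, 0.92, 1.06 and 1.05 after SN, 1.15, 1.04, 1.14 and 1.20 in TRAIL+C3/C2 and 0.60, 0.59, 0.82 and 0.90 in TRAIL+SN. It rose by 1.04 after C3/C2, 0.71 after SN, 0.86 in TRAIL+C3/C2 and 0.46 in TRAIL+SN, without overlap with NT. The probes were designed on different RefSeq transcripts of WIPI2, NM_001033518 and NM_015610.

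For ATG5, the partner of ATG12 in the conjugate, the first probe read 1.27, 1.17, 1.34 and 1.12 in NT and 1.28, 1.33, 1.56 and 1.53 after C3/C2, overlapping groups with a difference of 0.20 ± 0.07 (SE, adjusted p = 0.0209). The second probe read -0.29, -0.29, -0.27 and -0.55 in NT and -0.80, -0.73, -0.82 and -0.88 after C3/C2, without overlap. It fell in all 5 groups, by 0.46 after C3/C2 and 0.59 in TRAIL+C3/C2 and by 0.17 to 0.27 in the others. With the mean of the probes ATG5 differed by -0.13 after C3/C2.

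**Figure D4:**
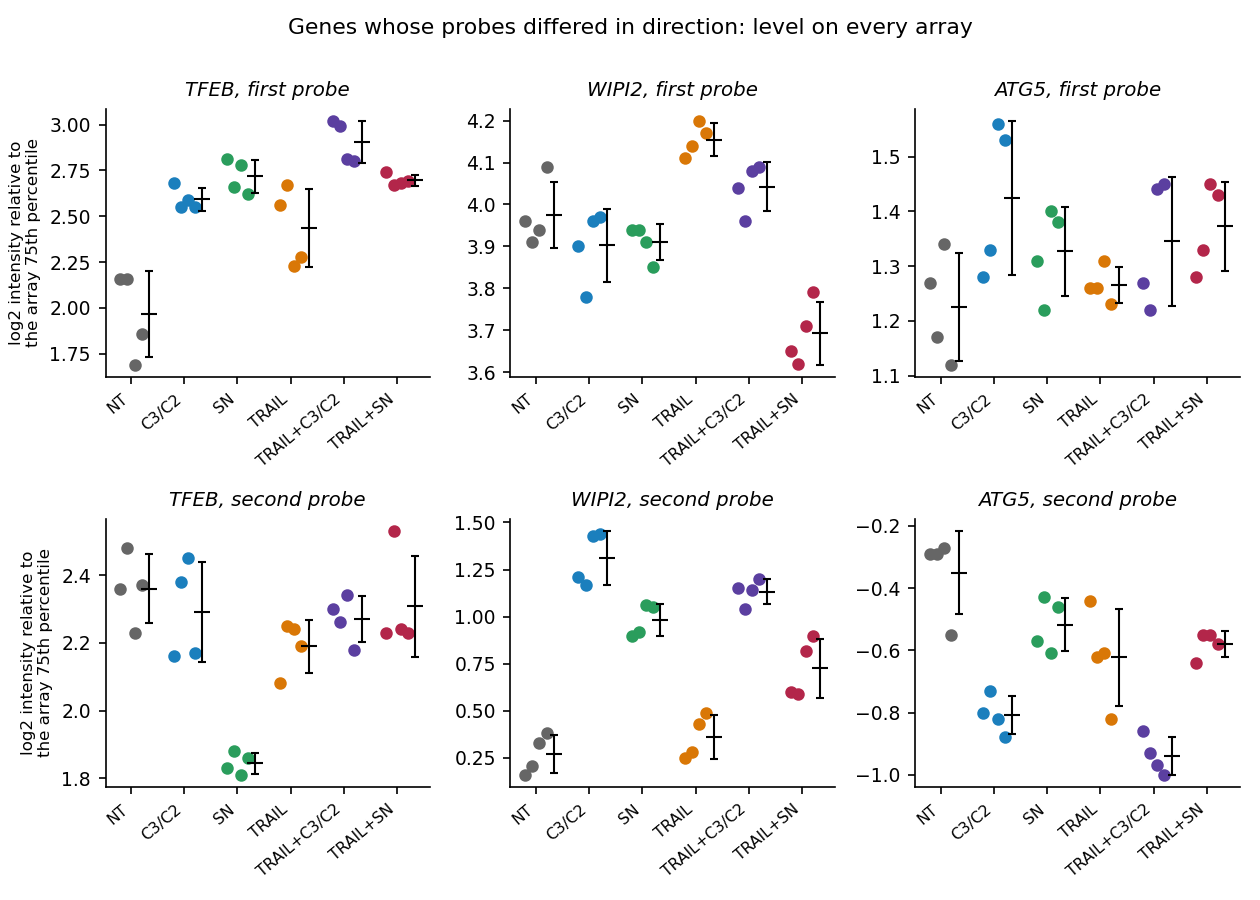
Log2 intensity relative to the array's 75th percentile (vertical axis) of the first (top) and second (bottom) probe of TFEB, WIPI2 and ATG5 on each array, by treatment (horizontal axis), with mean ± SD of 4 arrays in black. The second TFEB probe is lowest in SN where the first one is raised, and the second WIPI2 probe is 1.04 above NT after C3/C2 where the first one differs by -0.07.

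LAMP1 and LAMP2 encode the abundant glycoproteins of the lysosome membrane. LAMP1 rose by 0.22 after C3/C2, 0.37 after SN, 0.17 after TRAIL, 0.38 in TRAIL+C3/C2 and 0.44 in TRAIL+SN (SE 0.05), and these turned to -0.08 after C3/C2 with array median scaling, to -0.09, -0.33 and -0.07 in the 3 groups with TRAIL with spike-in scaling, and to -0.06 after TRAIL with quantile normalization. LAMP2 was read by 3 probes designed on different transcripts, whose protein products differ in the segment at the membrane and include LAMP2A, the receptor of chaperone-mediated autophagy. The probe on NM_001122606 rose by 0.56 after C3/C2, 0.48 after SN and 0.24 in TRAIL+C3/C2 and differed by -0.11 after TRAIL, with TRAIL+C3/C2 values of -0.11 under array median scaling and -0.47 under spike-in scaling. The probe on NM_002294 read 0.50 in NT, rose by 0.55 after C3/C2 and by 0.14 after SN, and fell by 0.40 after TRAIL with no overlap with NT. The probe on NM_013995 differed by 0.05 after C3/C2 (adjusted p = 0.724) and rose by 0.31 after SN and by 0.45 in TRAIL+SN.

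Promoter sequences from RefSeq (GRCh38.p14), 250 bases before to 50 after the start, were matched by symbol for 32 of the 37 genes, with 42 sequences in all. ATG4D, LAMP2, MAP1LC3A, RB1CC1 and UVRAG had none. The letters CACGTG, the E-box that TFEB and its relatives read, were in 3 of the 42 sequences (7.14%) and in 7.26% of 35116 promoters of all genes. The longer form TCACGTGA, which contains it, was in 2 of 42 (4.76%) against 0.98%. Both read the same on either strand. The 3 genes with CACGTG were LAMP1, with 6 copies, ATG3 with 2 and ATG14 with 1, and none of them was called. ULK1, ATG2A and MAP1LC3B, called after C3/C2 and SN, had no copy in these windows. Also searched on both strands, TGACTCA and GTAAACA (the AP-1 and forkhead motifs) were in none of the 42 sequences, against 4.95% and 3.42% of all promoters, and TGACGTCA (the cyclic AMP response element) was in that of GABARAPL1, 2.38% against 1.85%. The median GC content of the 42 sequences was 65.2% against 58.7% for all promoters. Shown 5′ to 3′ are 2 promoters that hold the E-box, at chr13:113296989-113297288 (LAMP1, plus strand) and chr3:112561913-112562212 (ATG3, minus strand), and 2 of strongly risen genes that do not, at chr11:64917160-64917459 (ATG2A, minus strand) and chr16:87392086-87392385 (MAP1LC3B, plus strand), with CACGTG and TCACGTGA in capitals.
LAMP1 promoter: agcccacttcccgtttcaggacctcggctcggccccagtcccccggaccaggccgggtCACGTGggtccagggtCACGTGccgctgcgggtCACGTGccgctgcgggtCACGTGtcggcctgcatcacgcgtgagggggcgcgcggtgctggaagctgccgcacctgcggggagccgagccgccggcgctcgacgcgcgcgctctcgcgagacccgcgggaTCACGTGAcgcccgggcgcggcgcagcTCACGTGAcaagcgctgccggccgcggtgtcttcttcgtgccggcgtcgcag
ATG3 promoter: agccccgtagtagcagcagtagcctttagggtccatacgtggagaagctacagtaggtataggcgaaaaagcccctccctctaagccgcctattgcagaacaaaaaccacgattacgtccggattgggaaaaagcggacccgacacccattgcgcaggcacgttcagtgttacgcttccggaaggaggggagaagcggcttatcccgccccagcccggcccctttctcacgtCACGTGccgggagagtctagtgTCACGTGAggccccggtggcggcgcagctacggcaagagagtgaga
ATG2A promoter: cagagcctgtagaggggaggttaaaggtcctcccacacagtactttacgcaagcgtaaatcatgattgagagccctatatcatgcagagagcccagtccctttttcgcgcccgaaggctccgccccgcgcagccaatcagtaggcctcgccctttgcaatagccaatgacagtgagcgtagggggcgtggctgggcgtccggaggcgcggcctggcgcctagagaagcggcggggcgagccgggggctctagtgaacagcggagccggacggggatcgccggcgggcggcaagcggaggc
MAP1LC3B promoter: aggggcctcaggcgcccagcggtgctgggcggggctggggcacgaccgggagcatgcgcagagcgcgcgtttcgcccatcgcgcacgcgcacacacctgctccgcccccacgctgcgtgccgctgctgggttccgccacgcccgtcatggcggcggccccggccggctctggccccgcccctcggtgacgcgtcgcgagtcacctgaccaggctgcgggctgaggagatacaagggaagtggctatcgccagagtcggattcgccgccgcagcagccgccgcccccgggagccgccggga

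Between SN and C3/C2, which share part of their composition since the supernatant contains the same 2 acids, none of the 37 genes was called by limma, where 1.28% of all genes were called higher in SN and 4.42% lower. By adjusted p alone 9 were higher in SN (background 21.7%) and 7 lower (background 25.7%), and at an unadjusted p under 0.05 the counts were 10 and 7 (24.4% and 29.4% of all genes). Among genes past the adjusted p, the largest excess in SN after SQSTM1 was in VMP1 (0.48), ATG16L1 (0.41) and MAP1LC3A (0.36), and the largest deficit in ATG14 (-0.57) and GABARAPL1 (-0.37). C3/C2 lay on slides 1 and 2 and SN on slide 3, so that treatment and slide cannot be told apart here. With array median or spike-in scaling SQSTM1 was called higher in SN (1.10 and 1.20). These scalings moved the median of all genes from -0.05 to 0.12 and 0.23, so the excesses and deficits above depend on scaling. By adjusted p alone, 33.3% and 35.4% of all genes were then higher in SN and 14.8% and 8.69% lower.

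TRAIL+SN and TRAIL+C3/C2 lay on the same slide. None of the 37 genes was called between them by limma, against 0.976% of all genes higher in TRAIL+SN and 2.56% lower, and by adjusted p alone 8 were higher (background 15.9%) and 9 lower (background 21.7%), with 8 and 11 at an unadjusted p under 0.05 (19.1% and 26.4% of all genes). SQSTM1 was higher in TRAIL+SN by 0.57 ± 0.08 (SE), VMP1 by 0.50 ± 0.07, OPTN by 0.48 ± 0.07 and AMBRA1 by 0.33 ± 0.06. WIPI2 was lower by its first probe (-0.35 ± 0.05), as were ATG4D (-0.32 ± 0.08), BECN1 (-0.29 ± 0.05) and GABARAPL1 (-0.29 ± 0.09). These differences also shift with scaling. The median of all genes was -0.06 here, 0.09 with array median scaling and 0.13 with spike-in scaling.

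Within slide 3, SN could be set against TRAIL, a comparison added after the values were seen. Here MAP1LC3A differed by 2.70 ± 0.09 (SE, SN minus TRAIL), ATG2A by 1.56 ± 0.09, MAP1LC3B by 1.48 ± 0.09, ULK1 by 1.31 ± 0.10, ATG4B by 1.19 ± 0.05 and ATG4A by 1.12 ± 0.05, all called higher, and ATG10 by -1.18 ± 0.14, called lower. Of all genes, 13% were called higher and 7.94% lower in this comparison. ATG16L2 differed by 0.70 and ULK2 by -0.52 (adjusted p = 0.275), and SQSTM1 by -0.10 (adjusted p = 0.237). Within slide 2, which held 3 NT and 3 C3/C2 arrays, the same 7 genes as over both slides were called higher and the same 2 lower, with MAP1LC3A at 2.91 ± 0.10, ATG2A at 2.13 ± 0.07 and ATG10 at -1.23 ± 0.16. The shares of all genes called there were 13.5% higher and 6.26% lower.

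Whether a co-treatment equalled the sum of its parts was tested by the departure from the sum on the log2 scale. For TRAIL+C3/C2 none of the 37 genes was called by limma (background 0.493% above the sum and 0.164% below), and by adjusted p alone 0 departed above the sum (background 1.74%) and 1, VMP1, below it (-0.36 ± 0.09, background 1.14%), with 0 and 6 at an unadjusted p under 0.05 (8.29% and 7.35% of all genes). For TRAIL+SN none was called either (background 2.76% above and 0.333% below). By adjusted p alone 13 of the 37 (35.1%) departed below the sum against 12.2% of all genes, and 1 (2.7%), ATG4B, above it against 11%, with 15 and 2 at an unadjusted p under 0.05 (18.5% and 16.6% of all genes). ATG10 was below the sum by 0.64, TFEB by 0.49, ATG9A by 0.47 and MAP1LC3A by 0.44 on the log2 scale, and ATG4B was above it by 0.43. With normexp ATG10 fell no further in TRAIL+SN (-0.64) than after SN (-0.66), where the differences above were -1.81 and -1.17. The direction depended on the probe for ATG4B, TFEB and LAMP2, each of which had another probe past the adjusted threshold in the opposite direction (-0.51, 0.63 and 0.28). The median departure of the 37 genes was -0.16, and that of all genes -0.01. The departures shift with scaling: with array median scaling 15 departed below the sum (background 21.5%) and 0 above (background 5.91%), and with spike-in scaling 19 below (background 26.4%) and 0 above (background 2.54%), while the median of all genes was -0.17 and -0.34. SN and TRAIL lay on slide 3, TRAIL+SN on slide 4 and NT on slides 1 and 2, so that departure and slide cannot be told apart.

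Beyond the 37 genes, 162 of 174 further genes of the pathway, in 8 lists, were tested. Called higher were 25 after C3/C2 (15.4%, background 13.4%), 26 after SN (16%, background 14.2%) and 0 after TRAIL (background 0.749%). In TRAIL+C3/C2 29 were called higher (17.9%, background 16.3%) and in TRAIL+SN 24 (14.8%, background 16.1%). These shares lay near the background. Called lower were 3, 5, 0, 3 and 4 in the same order (1.85%, 3.09%, 0%, 1.85% and 2.47%). The backgrounds lower were 6.17%, 9.74%, 2.18%, 7.93% and 10.1%. By adjusted p alone 89 rose and 34 fell after C3/C2 (background 35.2% and 27.7%) and 98 and 30 after SN (35.1% and 34.2%). After TRAIL the counts were 41 and 17 (20.3% and 13.1%). They were 92 and 37 in TRAIL+C3/C2 (39.9% and 29.5%) and 94 and 40 in TRAIL+SN (37.4% and 32.7%). The median differences were 0.28, 0.40, 0.06, 0.27 and 0.40.

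The largest rises in these lists were in HYAL1, a hyaluronidase of the lysosome, by 4.31 after C3/C2, 4.14 after SN, 4.47 in TRAIL+C3/C2 and 4.13 in TRAIL+SN (SE 0.11), and in MITF, a relative of TFEB, by 4.21, 3.63, 4.11 and 3.54 (SE 0.16). DDIT3, which encodes the stress factor CHOP, rose by 3.78 after SN and 3.60 in TRAIL+SN (SE 0.31). SESN3, a sestrin that restrains mTORC1, was well above background on no NT array and was at least 5.49-fold higher after C3/C2 and at least 3.54-fold higher in TRAIL+C3/C2. It passed the filter on dim probes only through treated groups, so its counted rises are no support for a change. CTSO, a cathepsin, had the largest fall, by 2.05, 1.99, 2.27 and 2.35 in the 4 groups with C3/C2 or SN (SE 0.12). TMEM192 of the lysosome membrane fell by 1.45 after SN, 1.03 in TRAIL+C3/C2 and 1.77 in TRAIL+SN, where it was well above background on 1 array. WDFY3, an adaptor for aggregates, fell by 1.47 after C3/C2 and 1.21 in TRAIL+C3/C2, RILP, an effector of RAB7, by 1.15 after C3/C2, FUNDC1, a mitophagy receptor, by 1.27 after SN and RRAGB, a Rag GTPase of the mTORC1 pathway, by 1.33 in TRAIL+SN, also well above background on 1 array there.

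Among the lists, the 42 lysosomal hydrolases had 7 called higher and 1 lower after C3/C2 (16.7% and 2.38%) and 8 and 1 after SN (19% and 2.38%), against 13.4% and 6.17% of all genes after C3/C2 and 14.2% and 9.74% after SN, with medians of 0.32 and 0.56. The 26 genes of mTORC1 and AMPK control had 6 and 0 (23.1% higher), and 6 and 1 (23.1% and 3.85%), with medians of 0.19 and 0.25. SESN3, not measured in NT, is among those counted higher after C3/C2. The 19 subunits of the vacuolar ATPase, the proton pump of the lysosome, had 2 and 0, and 3 and 0 (15.8% higher), with medians of 0.30 and 0.60. The 14 fusion genes had 1 and 1 (7.14% each), and 1 and 0 (7.14% higher), with medians of -0.04 and 0.14. TRAIL alone had no called gene in any of the 8 lists, where 0.749% of all genes were called higher and 2.18% lower.

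**Figure D5:**
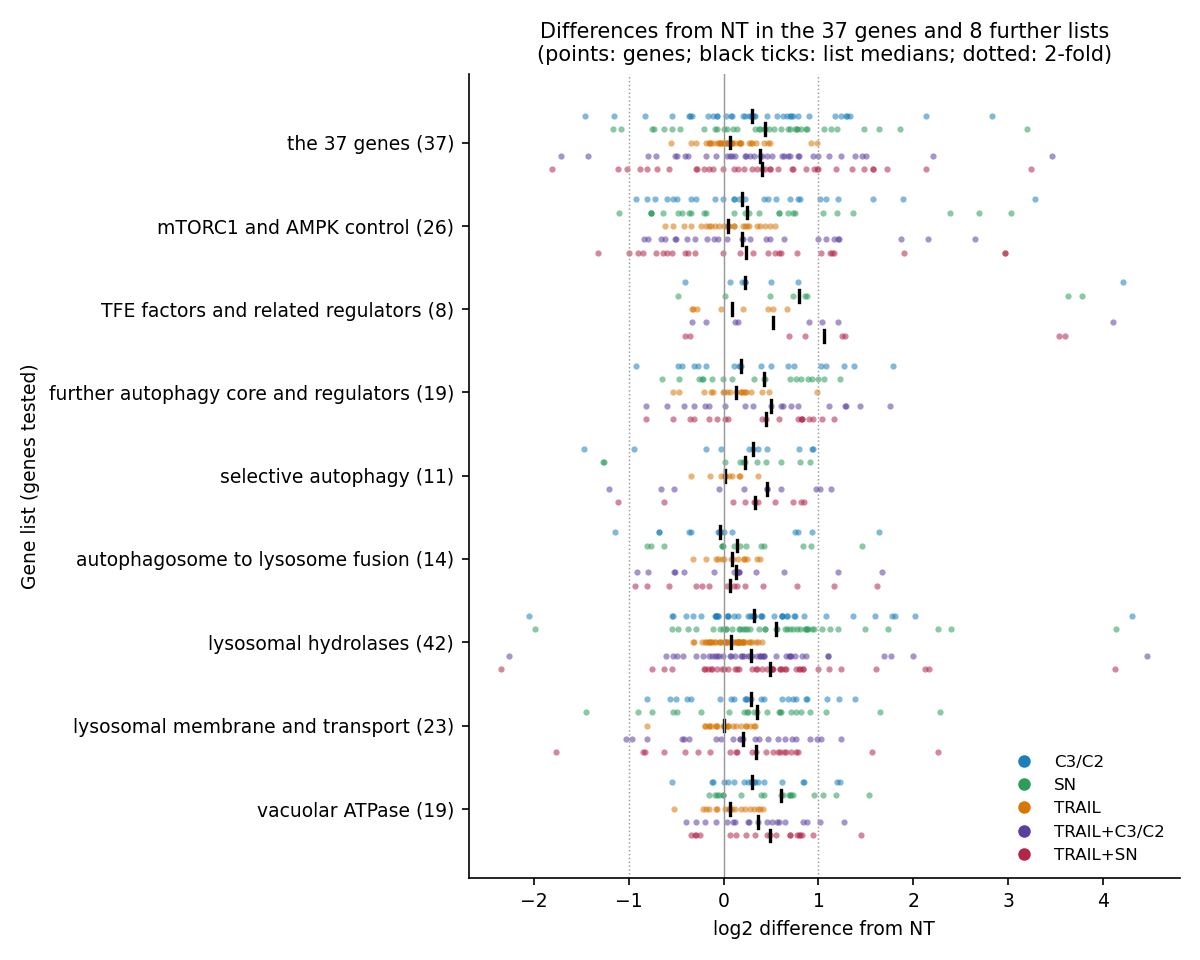
Log2 difference from NT (horizontal axis) of every tested gene in the set of 37 and in 8 further lists (vertical axis, number of genes tested in brackets), coloured by treatment, with list medians as black ticks and dotted lines at a 2-fold change. The TRAIL points stay within the dotted lines, and the farthest points to the right are HYAL1, MITF and, after SN and TRAIL+SN, DDIT3, between 3.54 and 4.47.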

How the data were processed

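HT29 RNA was hybridised to 24 one-colour Agilent 8x60K arrays, 4 per group. The deposited scanner files (Agilent Feature Extraction 10.7.3.1) give a processed intensity per spot, from which the authors' software had subtracted background, and flags. The authors' value table, deposited as a ratio to the array median, served as an alternative. The study describes independent experiments in duplicate, so the 4 arrays of a group are not 4 independent experiments. The labels do not say which arrays share an experiment. The fit took all 4 as replicates, so p-values may in part measure technical spread.

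Control spots and outlier spots (0.324% to 0.536% of an array's spots) were left out, no spot was saturated, and log2 intensity was taken minus the array's 75th percentile. Spots of a probe were averaged, a probe was kept (27953 of 50599) if some group had it well above background on each of its 4 arrays, and the probe with the highest mean stood for a gene (20700). Group means were fitted with limma 3.58.1 (lmFit, eBayes, 18 residual degrees of freedom) in R 4.3.3, with Benjamini-Hochberg adjustment over all genes. The members and lists were chosen with earlier results of these data known. Values per array are given for members called in a comparison with NT, for the 3 members that moved most past the adjusted p in each, and for members with probes past it in opposite directions. From the further lists, the 3 largest called rises and falls per comparison are named. Alternatives covered scaling, background, filter, probe choice, slide, replicate block and each array left out. The script was tested on simulated data. The number of independent experiments, which is smaller than that of arrays, limits the precision.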

Additional observations from a re-analysis of the deposited data

Results flagged for a closer look

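On 2 of the 90 sets of 4 arrays examined for a stray array, 1 array of ULK2 lay far from the other 3, and chance marks about 1 in 20 such sets. ULK2 read -6.91 on C3/C2 replicate 1, where the other arrays of the group lay between -5.82 and -5.66, and -6.90 on TRAIL+SN replicate 3, where the others lay between -5.47 and -5.21. ULK2 was dim in both groups.

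The log2 difference between a co-treatment and the sum of its single treatments passed the adjusted threshold (limma) for 1 gene with TRAIL+C3/C2, VMP1 at -0.36. With TRAIL+SN it passed for ATG10 (-0.64), TFEB (-0.49), ATG9A (-0.47), MAP1LC3A (-0.44), WIPI2 (-0.40), ATG3 (-0.39), ATG13 (-0.38), VMP1 (-0.34), BECN1 (-0.33), ATG4A (-0.27), LAMP2 (-0.26), ATG16L1 (-0.23) and TAX1BP1 (-0.20), all below the sum, and for ATG4B (0.43), above it. For ATG4B, TFEB and LAMP2 another probe of the gene departed past the threshold in the opposite direction (-0.51, 0.63 and 0.28). With normexp the ATG10 difference from NT was -0.66 after SN and -0.64 in TRAIL+SN, so its further fall in TRAIL+SN was not seen there. Departure and slide cannot be told apart in either co-treatment.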

How the results depend on the processing

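Counts of genes called among the 37 moved most with scaling and with the fold limit. With array median scaling, and alike in the authors' table, C3/C2 had 4 higher, TRAIL 2 higher, SN over C3/C2 1 higher, TRAIL+C3/C2 4 lower and TRAIL+SN 5 lower. With spike-in scaling TRAIL+C3/C2 had 2 higher and 8 lower, TRAIL+SN 5 higher and 7 lower, SN 1 lower and SN over C3/C2 1 higher. With no minimum fold change the counts higher and lower were 23 and 6 (C3/C2), 24 and 8 (SN), 10 and 1 (TRAIL), 23 and 9 (TRAIL+C3/C2), 22 and 11 (TRAIL+SN), 9 and 7 (SN against C3/C2), 8 and 9 (TRAIL+SN against TRAIL+C3/C2), 1 and 13 (departure of TRAIL+SN) and 0 and 1 (departure of TRAIL+C3/C2). Normexp background correction left 0 lower in both co-treatments and after either C3/C2 or SN alone. Of all genes, 3.33% were then called lower after C3/C2, 5.22% after SN, 3.72% in TRAIL+C3/C2 and 4.99% in TRAIL+SN. Probes above background on all 24 arrays left 1 lower in C3/C2, SN and TRAIL+C3/C2, because ULK2 was no longer tested. The shares of all genes were 5.57%, 8.32% and 6.69%. No filter left 1 lower in SN (6.33% of all genes). The mean of a gene's probes gave 1 lower after TRAIL (2.16% of all genes) and 1 departure above the sum with TRAIL+C3/C2 (0.531%). Both were ATG4C, which has a probe well above background on the NT arrays alone. SN against TRAIL on slide 3, chosen after seeing the data, had 1 lower (background 7.94%). Leaving out 1 array gave 0 to 1 higher after TRAIL, 7 to 9 in TRAIL+C3/C2 and 8 to 9 in TRAIL+SN, and 1 to 2 lower after SN and 2 to 3 in TRAIL+SN, and moved no other count. The cause of these shifts was otherwise not tested.

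Directions turned with spike-in scaling in TRAIL+C3/C2 for AMBRA1 (-0.08), ATG2B (-0.07), ATG4D (-0.03), ATG9A (-0.24), LAMP1 (-0.33), LAMP2 (-0.47), OPTN (0.00), RB1CC1 (-0.38), TAX1BP1 (-0.43), UVRAG (-0.30), VMP1 (-0.49) and WIPI1 (-0.19), in TRAIL+SN for ATG4D (-0.16), ATG9A (-0.11), GABARAPL1 (-0.02), LAMP1 (-0.07), RB1CC1 (-0.21), TAX1BP1 (-0.30) and UVRAG (-0.02), and after TRAIL for LAMP1 (-0.09) and WIPI2 (-0.08). They turned with array median scaling and in the authors' table after C3/C2 for ATG5 (-0.10), ATG9A (0.00), LAMP1 (-0.08), TAX1BP1 (-0.03) and VMP1 (-0.01), and in TRAIL+C3/C2 for LAMP2 (-0.11), RB1CC1 (-0.02), TAX1BP1 (-0.07) and VMP1 (-0.13). With normexp they turned for ATG14 (0.25), ATG4C (0.05) and ULK2 (0.14) in TRAIL+C3/C2 and for ATG14 (0.18) and ULK2 (0.20) in TRAIL+SN, with the mean of probes for ATG5 after C3/C2 (-0.13) and WIPI2 in TRAIL+SN (0.09), and with quantile normalization for LAMP1 after TRAIL (-0.06).

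With the replicate number as a replicate block, the counts stayed at 7 higher and 2 lower after C3/C2, SN and TRAIL+C3/C2, 0 and 0 after TRAIL and 8 and 3 in TRAIL+SN. Departures below the sum by adjusted p alone went from 1 to 4 with TRAIL+C3/C2 and from 13 to 15 with TRAIL+SN. The share of all genes below the sum rose as well, from 1.14% to 3.06% and from 12.2% to 18%. The deviations of same-numbered arrays correlated with a median r of 0.2, against -0.12 for arrays of other numbers. Of the 24 arrays, 21 correlated best with an array of their own number. The limit set, an r over 0.1, was passed by 57 of 60 same-numbered pairs. Since not every pair passed it, the main fit did not take the numbers as pairs, although most pairs went together.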
